A study of Rattus norvegicus with 12 samples.

Results

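The genes described here break down threonine, make and use glycine, and turn glycine into creatine. They are Tdh, Gcat, Gatm, Gamt, Gnmt, Shmt1, Shmt2, Sds and Gldc, 9 genes listed for their function but chosen by their log2 levels in the 4 groups of these same arrays, so that their values in the diabetic animals are given as a description without a p-value. On the Affymetrix RAE230-A rat array, 8 of the 9 genes had a probe set of their own, 8 probe sets in all out of 15866 that were not controls. Gcat had none of its name and was not analysed here. The RNA came from the whole pancreas of adult male Wistar rats. Diabetic rats had received streptozotocin (STZ), a toxin that destroys insulin-producing beta cells. Diabetic treated (DT) animals drank sodium tungstate, per the labels at 0.7 g/L in the first week and at 2 g/L in the following 4 to 5 weeks, and diabetic untreated (DU) animals were kept for 5 to 6 weeks without it. Healthy treated (HT) animals received tungstate and no STZ, and healthy untreated (HU) animals received neither. Each of the 4 groups had 3 arrays, and each array held RNA pooled from 3 rats. The p-values below therefore reflect how pools vary, where the variation from rat to rat is averaged within a pool and cannot be seen for single rats.

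In mammals such as the rat, threonine dehydrogenase (Tdh) oxidizes threonine in mitochondria, and Gcat splits the product into glycine and acetyl-CoA. Serine hydroxymethyltransferases exchange glycine and serine and load the folate cycle, the glycine cleavage system degrades glycine, and Gnmt methylates it with S-adenosylmethionine, the methyl donor made in the methionine cycle. Creatine, an energy buffer of muscle and brain, is made from glycine and arginine by Gatm and then methylated by Gamt, and the exocrine pancreas is known, with the kidney and liver, as a tissue that holds these enzymes.

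The promoters of Gatm, Gamt and Gnmt are shown because these genes set glycine on its way to creatine or to sarcosine and their levels on the DT arrays are described below. The table of RefSeq promoters matched 7 of the 9 genes by symbol. The sequences are those of RefSeq on the GRCr8 build, written 5′ to 3′ on the gene's strand. Each runs from 250 bases before to 50 bases after a start site listed for the gene. Capitals mark each match to the CCAAT box, CCAAT or its reverse complement ATTGG. The Gatm sequence is chr3:130129044-130129343 on the minus strand, that of Gamt is chr7:10099034-10099333 on the plus strand, and that of Gnmt is chr9:21752032-21752331 on the plus strand. The Gatm window lies inside the span given below for that gene, 130112508 to 130137664. Its matches therefore describe a start site within the span and not the outer end of it.
Gatm: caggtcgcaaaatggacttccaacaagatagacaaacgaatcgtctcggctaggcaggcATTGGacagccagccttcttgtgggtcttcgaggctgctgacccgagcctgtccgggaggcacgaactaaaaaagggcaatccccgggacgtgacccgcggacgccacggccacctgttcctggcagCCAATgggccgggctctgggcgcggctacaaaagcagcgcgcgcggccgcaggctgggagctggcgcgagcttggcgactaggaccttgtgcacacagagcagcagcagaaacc
Gamt: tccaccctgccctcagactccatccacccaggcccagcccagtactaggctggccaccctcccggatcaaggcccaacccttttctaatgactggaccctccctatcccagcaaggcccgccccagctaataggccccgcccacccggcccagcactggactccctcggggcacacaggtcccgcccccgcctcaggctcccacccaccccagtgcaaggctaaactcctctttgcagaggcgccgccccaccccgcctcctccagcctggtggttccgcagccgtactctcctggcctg
Gnmt: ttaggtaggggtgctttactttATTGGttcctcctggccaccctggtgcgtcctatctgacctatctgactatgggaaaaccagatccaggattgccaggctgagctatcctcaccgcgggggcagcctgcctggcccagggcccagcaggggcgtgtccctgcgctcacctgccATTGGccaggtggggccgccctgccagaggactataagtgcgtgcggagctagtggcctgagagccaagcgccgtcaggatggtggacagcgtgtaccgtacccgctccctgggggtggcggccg
Gatm and Gnmt had 2 CCAAT matches each and Gamt had 0, where 37.5% of 33469 promoters of this length in the table held at least 1. For the GC box, GGGCGG on either strand, Gamt had 4 matches, Gnmt had 1 and Gatm had 0, and 33.1% of all promoters held it. None of these 3 promoters held TATAAA on either strand, a motif of 14.2% of promoters, or TGATGNAA, the amino acid response element, a motif of 3.98%. No motif searched holds another in its letters. A match is a description of the sequence and not of a site in use.

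The deposited values are log2 intensities, and a difference of 1 is a 2-fold difference. Array medians ranged from 6.63 to 6.70, and arrays correlated at 0.976 to 0.995. The arrays belonged to 3 chip lots, and scanning took 6 days. DU1 shared scan day 1 with DT1 and DT2, and neither DU nor DT arrays were scanned on the day of an HU array. A scan day block therefore reaches DU vs. HU and DT vs. HU only through arrays of other groups. Lot 1 was used for DT1, DT2, DU1, DU2 and HU3, lot 2 for HT1, HT2 and the other HU arrays, and lot 3 for the third array of the DT, DU and HT groups. The record of DU2 notes an in vitro transcription of 7 hours. In the pancreas, 11 measured acinar markers had a mean level of 13.2 to 13.4 in DT, 12.7 to 12.9 in DU, 13.1 to 13.3 in HT and 13.2 to 13.3 in HU arrays. The 6 measured beta cell markers had a mean level of 7.86 to 8.65 in DT, 7.62 to 7.86 in DU, 9.53 to 9.82 in HT and 9.64 to 9.79 in HU arrays. In whole tissue, fewer cells of a type and less RNA per cell cannot be told apart.

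Tdh had by far the widest range of the members. It lies on chromosome 15 (41915766 to 41929307, GRCr8) and encodes the mitochondrial enzyme that starts threonine breakdown. Its log2 intensity was 6.52, 6.47 and 6.58 on DT arrays, 11.71, 11.59 and 11.18 on DU arrays, 6.95, 7.30 and 6.43 on HT arrays, and 8.0003, 7.18 and 6.68 on HU arrays. The 3 DU arrays were high and stood clear of the other 9 arrays, while the DT arrays lay below every HU array and HT overlapped HU. The group means were 6.52 ± 0.06 in DT, 11.49 ± 0.28 in DU, 6.89 ± 0.44 in HT and 7.29 ± 0.67 in HU animals (SD, n = 3 pools). The DT arrays were the closest together and the HU arrays the farthest apart. The log2 difference was 4.21 (standard error 0.28) in DU compared to HU animals, and 0 of the other probe sets had a larger rise there. It was -4.97 (standard error 0.28) in DT vs. DU, where 0 of the other probe sets had a larger fall.

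**Figure D1:**
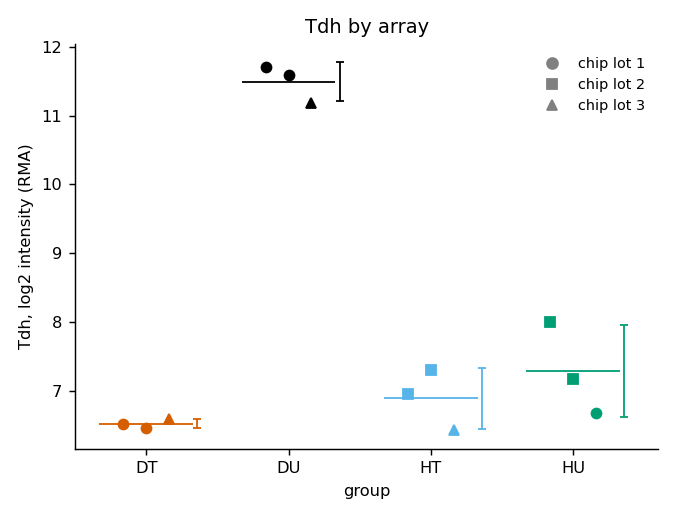
Tdh log2 intensity (vertical axis) on each array of the 4 groups. Points are arrays, shaped by chip lot, short lines are group means and bars are SD of 3 arrays. The DU arrays lie between 11.18 and 11.71 and all other arrays between 6.43 and 8.0003.

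The Tdh difference was seen within technical batches wherever a batch held both groups. Between DT and DU animals it was -5.21 within scan day 1, -5.16 within chip lot 1 and -4.59 within chip lot 3. Between DU and HU animals it was 4.97 within chip lot 1, where HU3 was the only HU array, and 4.74 in a model that blocked on the lot. Blocking on the scan day gave 5.82, a value that reaches from DU to HU through DT and HT arrays only. The smaller difference in DT vs. HU was -0.76. It was -0.18 within chip lot 1, where the only HU array, HU3, was the lowest of its group. It turned to 0.61 when the model blocked on the scan day, a value that reaches from DT to HU through HT arrays only. The mean level of 13 measured hepatocyte markers, cells that also break down threonine, was 6.75 to 6.93 in DT, 6.81 to 6.85 in DU, 6.85 to 7.01 in HT and 6.87 to 6.87 in HU arrays. The mean level of the acinar list was lower in DU arrays, but the median log2 difference of its 11 genes in DU vs. HU was -0.0016, with 1 gene called, Amy2a3, an amylase. The part of these marker lists in the Tdh difference was not tested.

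The next reactions of glycine had low or narrow ranges. Shmt1 (chromosome 10, 45968959 to 45990341) encodes the cytosolic and Shmt2 (chromosome 7, 65244247 to 65249580) the mitochondrial serine hydroxymethyltransferase. Shmt2 measured 8.02, 8.14 and 7.71 on DT arrays, 7.75, 7.85 and 7.84 on DU arrays, 7.61, 7.85 and 7.78 on HT arrays, and 7.54, 7.60 and 7.82 on HU arrays. Its groups overlapped in every comparison, with a log2 difference of 0.30 (standard error 0.11) in DT vs. HU that turned to -0.16 when the model blocked on the scan day. DT3 was the lowest of the DT arrays, 0.37 below the mean of DT1 and DT2. Shmt1 measured 7.14, 7.16 and 7.10 on DT arrays, 7.05, 6.93 and 6.92 on DU arrays, 7.04, 7.09 and 7.44 on HT arrays, and 7.05, 7.05 and 6.98 on HU arrays. The DT arrays of Shmt1 lay above the DU and the HU arrays, by a log2 difference of 0.17 (standard error 0.10) in DT vs. DU and 0.11 (standard error 0.10) in DT vs. HU, and the DT vs. HU value turned to -0.25 under the scan day block.

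Gldc (chromosome 1, 237296753 to 237375620) encodes the glycine-binding P protein of the glycine cleavage system. It measured 6.75, 6.98 and 6.76 on DT arrays, 6.89, 6.70 and 7.21 on DU arrays, 7.19, 6.98 and 7.23 on HT arrays, and 7.04, 7.16 and 6.91 on HU arrays. Its groups overlapped in every comparison, and the log2 difference ranged from -0.21 in DT vs. HU to 0.10 in HT vs. HU. Under the scan day block the Gldc difference was -0.28 in DU vs. HU, -0.30 in DT vs. HU and 0.17 in HT vs. HU. Within chip lot 3 it was -0.45 in DT vs. DU, with 1 array a group. Sds (chromosome 12, 41743796 to 41751108), serine dehydratase, turns serine into pyruvate and also deaminates threonine. It measured 5.70, 5.72 and 5.63 on DT arrays, 5.75, 5.77 and 5.94 on DU arrays, 5.84, 5.72 and 6.00 on HT arrays, and 5.68, 5.83 and 5.71 on HU arrays. The DT arrays of Sds lay below the DU arrays by 0.14 on average (log2 difference -0.14, standard error 0.09), and DT overlapped HU. Among Shmt1, Shmt2, Gldc and Sds, the largest difference in the 4 comparisons was the 0.30 of Shmt2 in DT vs. HU, and under the scan day block it was the -0.49 of Shmt2 in DU vs. HU. Sds had a difference of 0.08 in DU vs. HU that turned to -0.27 under that block, and its difference of -0.06 in DT vs. HU became -0.30.

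Gnmt and Gamt both spend S-adenosylmethionine, Gnmt on glycine itself and Gamt on a product of it, and between DT and DU animals they differed in opposite directions. Gnmt (chromosome 9, 21752235 to 21756368), glycine N-methyltransferase, measured 9.61, 9.33 and 9.38 on DT arrays, 8.74, 8.75 and 9.10 on DU arrays, 9.11, 9.21 and 9.31 on HT arrays, and 9.20, 9.11 and 9.19 on HU arrays. The DT arrays were above all other 9 arrays, but DT2 at 9.33 lay only just over HT3 at 9.31. The DU arrays were below all other 9, but DU3 lay only 0.0055 under the lowest HU array. The log2 difference was 0.57 (standard error 0.11) in DT vs. DU, 0.27 in DT vs. HU and -0.30 in DU vs. HU. The DU vs. HU value became -0.68 and the DT vs. HU value 0.04 under the scan day block. Within scan day 1, DT1 and DT2 averaged 0.73 above DU1, and within chip lot 3, DT3 was 0.28 above DU3.

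Gamt (chromosome 7, 10099267 to 10102083), guanidinoacetate N-methyltransferase, carries out the last step of creatine synthesis. It measured 9.09, 9.15 and 9.05 on DT arrays, 9.56, 9.59 and 9.92 on DU arrays, 9.61, 9.61 and 9.67 on HT arrays, and 9.80, 9.57 and 9.72 on HU arrays. The DT arrays were below all other 9 arrays, and DU, HT and HU overlapped. The log2 difference was -0.59 (standard error 0.10) in DT vs. DU and -0.60 in DT vs. HU, against -0.01 in DU vs. HU, which became -0.28 under the scan day block. In DT vs. DU it was -0.65 to -0.48 with each array left out, where leaving out an HT or HU array cannot change it. Under the scan day block that difference was -0.44, and within chip lot 3 it was -0.86. The mean level of 8 measured stellate cell and fibroblast markers was 7.13 to 7.80 in DT, 7.70 to 8.001 in DU, 7.57 to 7.88 in HT and 7.68 to 8.09 in HU arrays, and its part in the DT values of Gamt and Gnmt was not tested. Taken array by array, and chosen after the values were seen, the log2 intensity of Gnmt minus that of Gamt, a quantity with meaning only as a change between arrays, averaged 0.34 ± 0.17 in DT, -0.82 ± 0.01 in DU, -0.42 ± 0.07 in HT and -0.53 ± 0.07 in HU animals (SD, n = 3 pools). On this scale every DT array was above, and every DU array below, all arrays of the healthy groups.

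Gatm (chromosome 3, 130112508 to 130137664), glycine amidinotransferase, makes the precursor that Gamt methylates and is the regulated step of creatine synthesis. It measured 11.87, 11.46 and 11.02 on DT arrays, 11.21, 11.12 and 10.78 on DU arrays, 10.95, 11.13 and 10.57 on HT arrays, and 11.30, 10.82 and 11.31 on HU arrays. All 4 groups overlapped, and the chip lot 3 array was the lowest in its group 3 times, by 0.64 in DT, 0.38 in DU and 0.47 in HT animals. The log2 difference of Gatm was 0.41 (standard error 0.21) in DT vs. DU, with 0.50 within chip lot 1 and 0.24 within chip lot 3. It was 0.20 without DT1 and 0.63 without DT3. This difference had the opposite sign to that of Gamt. The part of the chip lot in the Gatm values was not tested.

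**Figure D2:**
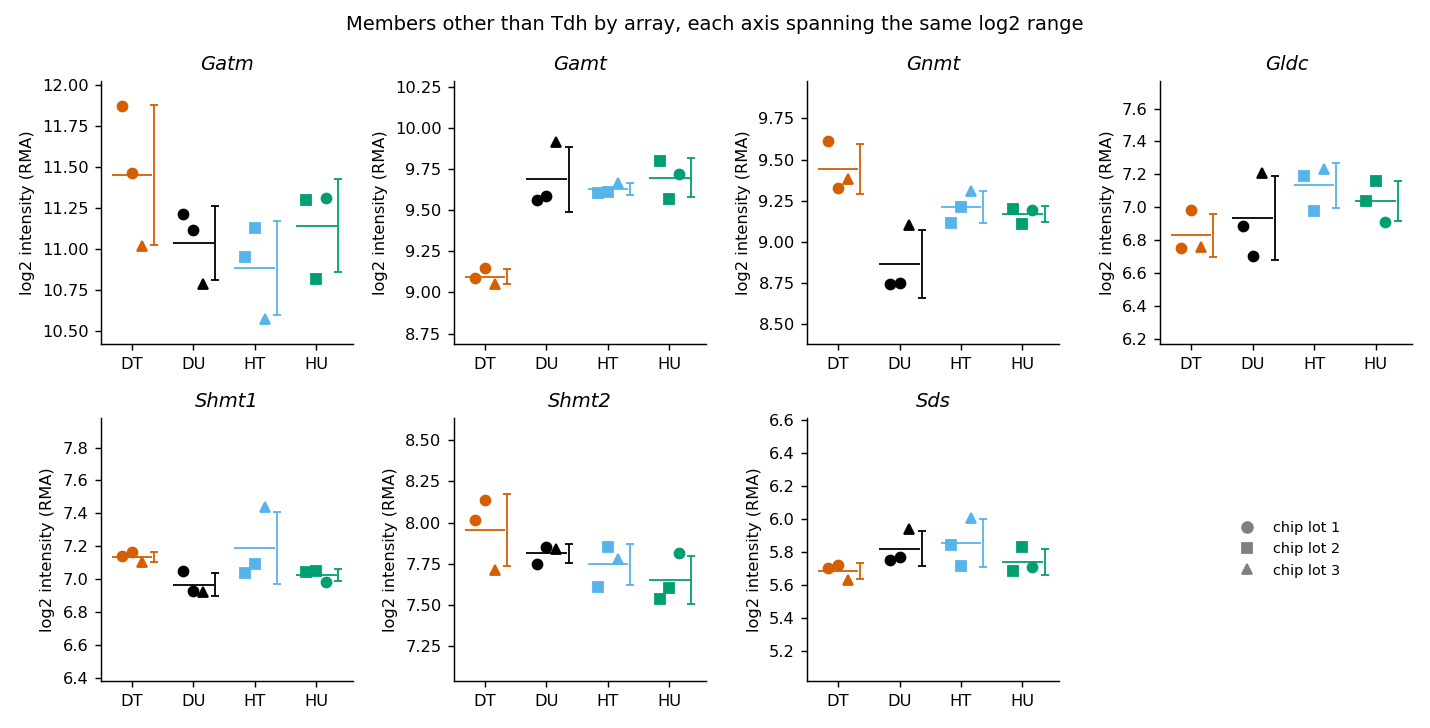
Log2 intensity (vertical axes) of the 7 measured members other than Tdh, by group. Points are arrays, shaped by chip lot, lines are group means and bars are SD of 3 arrays, and every axis spans the same log2 range. The DT arrays are the lowest of all for Gamt (9.05 to 9.15) and the highest of all for Gnmt (9.33 to 9.61). For Gnmt the next array, HT3, is at 9.31.

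**Figure D3:**
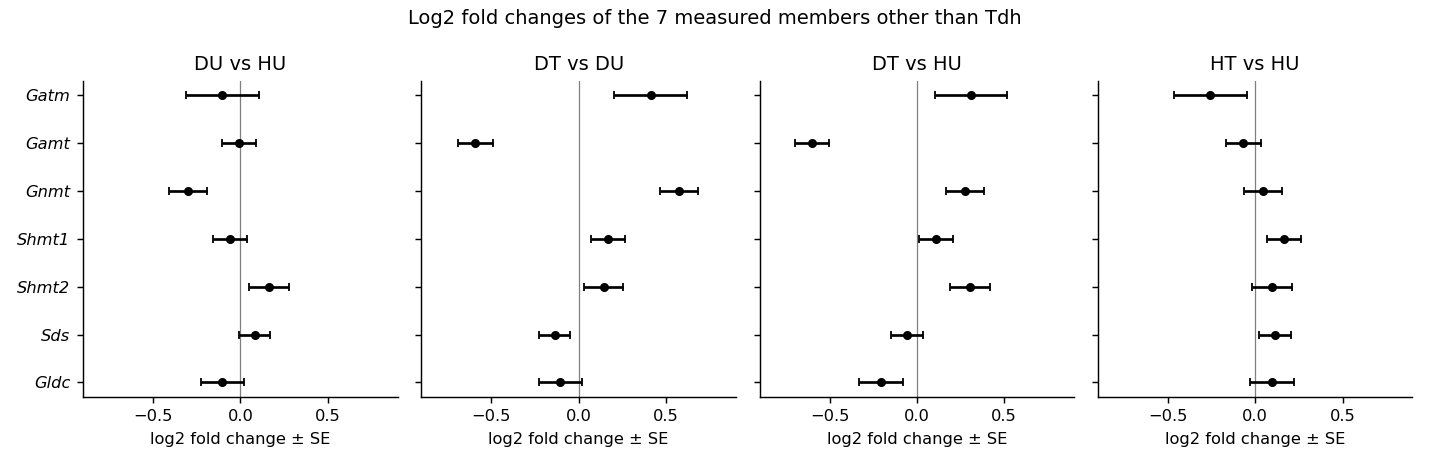
Log2 fold change with its standard error (horizontal axes) of the same 7 genes in 4 comparisons. Gnmt (0.57), Gatm (0.41) and Gamt (-0.59) lie farthest from 0 in DT vs. DU, and in HT vs. HU no gene lies farther than Gatm (-0.26).

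Set against all probe sets, the members were counted as follows. In DU vs. HU, 1 of 8 members (Tdh) passed limma at an adjusted p under 0.05, where 3.2% of all probe sets did. For DT vs. DU, 3 of 8 passed (Gnmt higher, Tdh and Gamt lower), where 1.12% of all probe sets did. For DT vs. HU, 1 of 8 passed (Gamt, lower), where 1.32% did. The interaction sets the effect of tungstate in diabetic animals against that in healthy animals, and there 1 of 8 passed (Tdh, lower), where 0.422% did. The members had been chosen with these comparisons known, so nothing is read from these counts. Gnmt was no longer called without DT1, DU1 or DU2, which left 2 of 8 members, and Gamt was not called in DT vs. HU without HU1, which left 0 of 8. With only the 6 arrays compared, 1 of 8 (Tdh) was called in DT vs. DU. Under a scan day block Gamt was called neither against DU nor against HU. Groups did not overlap for 2 of 8 members in DU vs. HU, for 5 of 8 in DT vs. DU and for 4 of 8 in DT vs. HU, against 29.4%, 13.9% and 21.1% of all probe sets. The median size of the log2 difference was 0.10 for members and 0.12 for all probe sets in DU vs. HU. These medians were 0.29 and 0.08 in DT vs. DU, and 0.29 and 0.11 in DT vs. HU.

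Whether tungstate changed these genes in animals without diabetes was asked in HT vs. HU. The levels of these arrays were also known when the members were chosen, so the test is not independent of that choice. By limma, 0 of 8 members passed at an adjusted p under 0.05, where 0.0063% of all probe sets did, and the adjusted p lay between 0.871 and 0.955. At an unadjusted p under 0.05, 0 of 8 members passed, where 5.41% of all probe sets did, and 0 of 8 had a B-statistic above 0, where 0% of all probe sets did. The log2 difference of Tdh was -0.39, with a 95% confidence interval of -0.99 to 0.20. That of Gatm was -0.26, with an interval of -0.70 to 0.19. For Gamt, Gnmt, Shmt1, Shmt2, Sds and Gldc the intervals lay between -0.28 and 0.37. Groups did not overlap for 0 of 8 members in HT vs. HU, against 11.6% of all probe sets. The difference of Tdh turned to 0.45 within scan day 3, where HU3 was the only HU array.

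The enzymes that feed and drain the same metabolites were followed in 4 lists of 70 genes, of which 50 were measured. The methionine cycle supplies the methyl group that Gnmt and Gamt use, and 2 of its genes were called. Mat1a, which makes S-adenosylmethionine, measured 9.09, 9.16 and 8.37 on DT arrays, 9.85, 9.57 and 10.09 on DU arrays, 8.59, 8.88 and 8.49 on HT arrays, and 8.68, 8.43 and 8.85 on HU arrays. The DU arrays were above all others. Mat1a rose in DU compared to HU animals by 1.18 on the log2 scale (standard error 0.20, limma adjusted p = 0.0050). It fell in DT vs. DU, with a log2 difference of -0.96 (adjusted p = 0.0310). Mat2a, another S-adenosylmethionine synthase of the same list and chosen after its values were seen, went the other way and did not pass. Its log2 difference was -0.34 in DU vs. HU (limma adjusted p = 0.471) and 0.88 in DT vs. DU (0.141). A chip lot block called Mat2a in DT vs. DU (adjusted p = 0.0228). Ahcy, which removes the S-adenosylhomocysteine left by methyl transfer, measured 10.95, 10.67 and 10.51 on DT arrays, 11.29, 10.96 and 11.20 on DU arrays, 9.89, 9.86 and 10.06 on HT arrays, and 10.16, 10.40 and 9.995 on HU arrays. Both diabetic groups were above both healthy groups. Ahcy rose in DU compared to HU animals by 0.96 (standard error 0.13, limma adjusted p = 0.00107), while in DT vs. DU its log2 difference was -0.44 (adjusted p = 0.193) and in DT vs. HU 0.53 (adjusted p = 0.0691).

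Of the 15 measured genes of the methionine cycle and transsulfuration, 2 were higher and 0 lower in DU vs. HU, where 3.2% of all probe sets were called, and 0 were higher and 1 lower in DT vs. DU, where 1.12% were. Their median size of difference was 0.24 in DU vs. HU, where that of all probe sets was 0.12, and 0.15 in DT vs. DU, where it was 0.08. Cth, the last enzyme of cysteine synthesis from homocysteine and chosen after its values were seen, averaged 9.002 ± 0.46 in DT, 9.18 ± 0.18 in DU, 8.20 ± 0.25 in HT and 8.28 ± 0.44 in HU animals (SD, n = 3 pools). It did not pass in DU vs. HU (log2 difference 0.89, limma adjusted p = 0.0550). Cth was called there with only the 6 arrays (adjusted p = 0.0419), without dim probe sets (0.0415) and without DT3 (0.0191). DU and HU arrays shared no scan day, so a scan day block reaches DU vs. HU only through DT and HT arrays. Within chip lot 1, where HU3 was the only HU array, that difference was 0.86 for Mat1a and 1.13 for Ahcy. A chip lot block kept the calls of Mat1a (limma adjusted p = 0.0395) and Ahcy (0.0168). When limma blocked on the scan day, the DU vs. HU difference of Mat1a was 0.48 (adjusted p = 0.691). That of Ahcy was 0.81 (adjusted p = 0.416). The DT vs. DU call of Mat1a was lost under the same block (-0.72, adjusted p = 0.0790), and also without DT3 (adjusted p = 0.0531), DU1 (0.118), DU3 (0.123), HT1 (0.0528) or HU1 (0.0543).

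**Figure D4:**
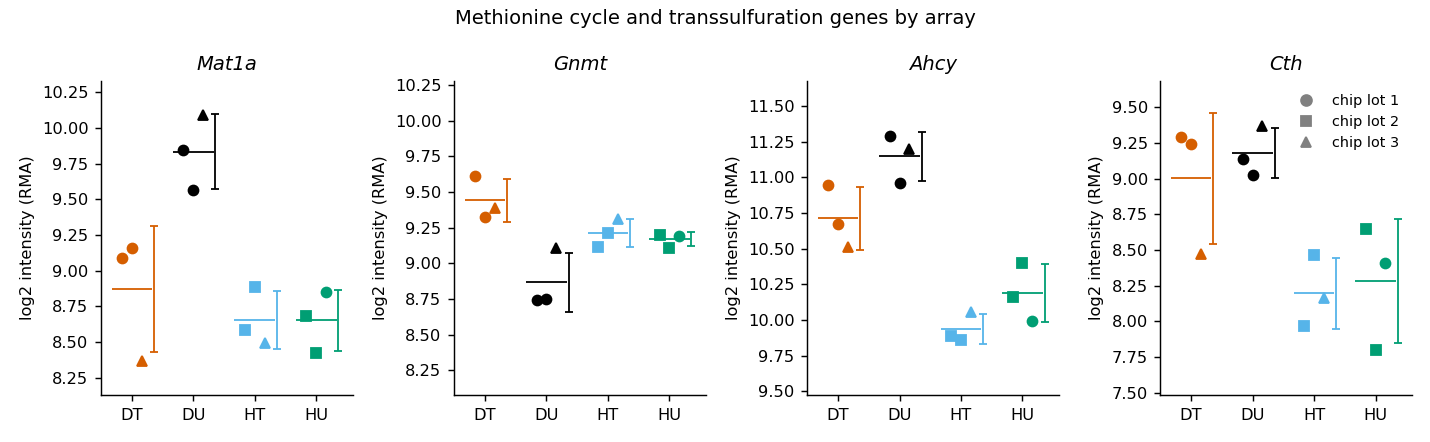
Log2 intensity (vertical axes) of Mat1a, Gnmt, Ahcy and Cth by group. Points are arrays, shaped by chip lot, lines are group means and bars are SD of 3 arrays, and every axis spans the same log2 range. Mat1a is highest on the DU arrays (9.57 to 10.09), where Gnmt is lowest (8.74 to 9.10).

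The other lists were counted in the same way. Among 15 measured genes of serine and glycine synthesis, breakdown and transport, 0 passed in any of the 5 contrasts by limma, and among 10 genes of the folate cycle 0 did. Of all probe sets, 0.0063% (HT vs. HU) to 3.2% (DU vs. HU) passed. At such shares, lists this short would hold few or no calls. At an unadjusted p under 0.05, 4 of these 15 and 2 of these 10 genes passed in DU vs. HU, where 20.2% of all probe sets did, and 2 and 1 in DT vs. DU, where 9.89% did. Of 10 genes of creatine kinases, creatine transport and arginine supply, Asl, which makes arginine, was lower in DU vs. HU (log2 difference -0.35, standard error 0.08, limma adjusted p = 0.0377). Asl measured 5.96, 5.84 and 5.94 on DT arrays, 5.83, 5.81 and 5.81 on DU arrays, 6.05, 5.96 and 6.11 on HT arrays, and 6.02, 6.30 and 6.20 on HU arrays. The DU arrays lay below all others, but the gene's second probe set had a difference of -0.16 (adjusted p = 0.314), and the call was lost without DU1 (adjusted p = 0.112), DU2 (0.113), DU3 (0.0876), HT2 (0.0524), HU2 (0.135) or HU3 (0.0961). It was also lost after quantile normalization (0.0568), median centring (0.0519), with the 6 arrays alone (0.0575), without chip lot 3 (0.0709) and under the chip lot (0.0935), replicate (0.0527) and scan day (0.697) blocks, all by limma's adjusted p. Over all 50 genes, limma called 0 in DT vs. HU, 0 in the interaction and 0 in HT vs. HU. Of all probe sets it called 1.32%, 0.422% and 0.0063% there. By the B-statistic 0 passed as well, where 1.18% of all probe sets did in DT vs. HU and 0.58% in the interaction. At an unadjusted p under 0.05, 11 genes passed in DT vs. HU, 1 in HT vs. HU and 4 in the interaction, against 16.6%, 5.41% and 8.75% of all probe sets.

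The genes whose pattern over the 12 arrays was most like that of Tdh were, among 10410 other genes and by Pearson's r, Ppcdc (0.97), Mylk2 (0.97), Hadh (0.96), Fbp2 (0.96), Vnn1 (0.95), Cbr1 (0.95), Angptl4 (0.95), Fbp1 (0.94), LOC102552398 (0.94) and Slc27a1 (0.94). The 12 points come from 4 groups, and r here follows the gap between DU and the other arrays. Ppcdc, an enzyme of coenzyme A synthesis, was 2.62 higher in DU arrays than the mean of the others, and Cbr1, a carbonyl reductase, 2.28 higher. Hadh, an enzyme of fatty acid oxidation, was 1.42 higher, Fbp2, a fructose bisphosphatase, 1.45 higher and Angptl4, a secreted inhibitor of lipoprotein lipase, 1.66 higher. Mylk2 had the second highest r with a gap of only 0.34. In all, 236 probe sets with 1 gene symbol had every DU array above all other 9. By Spearman's rho, which also orders the low arrays, 0 of these 10 genes were among the 10 most alike. No other member was alike: r with Tdh was 0.43 for Gamt, 0.19 for Sds, -0.06 for Shmt2, -0.14 for Gldc, -0.15 for Gatm, -0.56 for Shmt1 and -0.82 for Gnmt. All of these are descriptions over 12 arrays that share their groups.

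**Figure D5:**
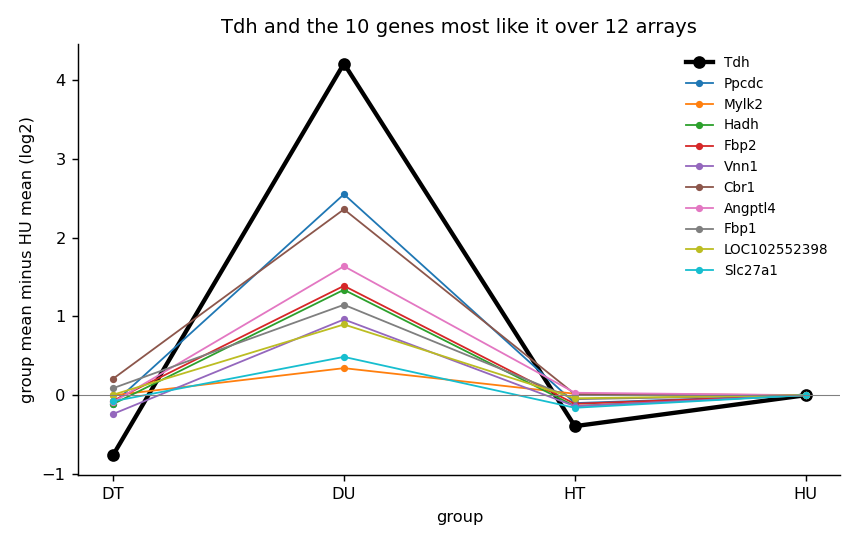
Group mean minus the HU mean (log2, vertical axis) for Tdh and the 10 genes with the highest Pearson's r with it over 12 arrays, in the 4 groups (lines join the groups of a gene). All 11 genes peak in DU animals, where Tdh reaches 4.21 above HU.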

How the data were processed

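Whole-pancreas RNA of rats was hybridized to 12 RAE230-A arrays, 3 a group. The authors turned the array scans into the deposited log2 intensities with RMA (affy package). Its version was not stated in the paper or labels. RMA adjusts the background, makes the distributions of the arrays equal and summarizes the probes of a probe set, so that changes are relative to the whole array. Arrays have no depth, and their number limits the precision. The probe annotation named exactly 1 gene for 12783 of 15866 probe sets, several for 312 and none for 2771, and 57 controls were left out.

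A mean per group was fitted to all 15866 probe sets with limma 3.58.1 in R 4.3.3. P-values were adjusted over all probe sets of a contrast (Benjamini-Hochberg) and called under 0.05, and the interaction was the DT vs. DU difference less the HT vs. HU difference. The B-statistic used a prior proportion of 0.01. The fits were tested on simulated arrays. The members, the related lists and the tests were chosen with earlier results of these data known. Named genes are the members, related genes called in any contrast, the 10 genes most like Tdh, and markers that bear on a member. Cth, Mat2a and the genes named only for an alternative were chosen after their values were seen. A related gene was read from its probe set of highest mean. Scan day and chip lot were taken from the array records. Alternatives were a second quantile normalization, median centring, blocks for the chip lot, scan day or replicate number, fits of the 6 compared arrays alone, limma's trend and robust options, leaving out the dimmest 25% of probe sets, the B-statistic, each array left out and, chosen after seeing the data, the 3 arrays of chip lot 3 left out. Promoter sequences came from a RefSeq table (GRCr8).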

Additional observations from a re-analysis of the deposited data

How the results depend on the processing

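The log2 fold change of Tdh in DU vs. HU was 4.21, with 5.82 under a scan day block, 4.74 under a chip lot block and 3.90 to 4.56 with each array left out, and its DT vs. DU value lay between -5.13 and -4.86 with each array left out. The count of members called in HT vs. HU was 0 to 0. Of all probe sets, 507 passed in DU vs. HU, but 34 under the scan day block, 236 under the chip lot block, 288 by the B-statistic and 214 (without DU1) to 654 with each array left out. For DT vs. DU 177 passed, but 88 with only the 6 arrays, 268 without chip lot 3 and 104 (without DU1) to 224 with each array left out. For DT vs. HU 209 passed, but 3 under the scan day block, 74 under the chip lot block, 45 with only the 6 arrays, 436 without chip lot 3 and 73 (without HU1) to 306 with each array left out. For HT vs. HU 1 passed, 2 after quantile normalization, 0 under each block, with the 6 arrays, with trend and robust, without dim probe sets, without chip lot 3 and by the B-statistic, and 0 to 2 with each array left out. The interaction had 67, 37 under the scan day block and 32 (without HU1) to 89 with each array left out. Of the 50 related genes, 3 passed in DU vs. HU, 0 under the scan day block and 2 to 4 with each array left out. For DT vs. DU 1 passed, 2 under the chip lot block (Mat1a and Mat2a), 0 under the scan day block or with the 6 arrays, 2 without chip lot 3 (Arg2 and Mthfd2, without Mat1a) and 0 to 1 with each array left out. For DT vs. HU 0 passed, 1 (Slc25a38) after median centring, with trend and robust and without dim probe sets, 4 without chip lot 3 (Ahcy, Cth, Mthfd2 and Slc25a38) and 0 to 4 with each array left out (4 without DT3). HT vs. HU and the interaction had 0 to 0 with each array left out. The genes named only here were chosen after their values were seen, and the causes were not tested.

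The labels do not say whether arrays of the same replicate number were paired. Deviations of same-numbered arrays from their group means correlated at -0.287 to 0.314, above 0.1 in 5 of 18 pairs. Those of differently numbered arrays correlated at -0.360 to 0.283. These values show no clear sign of pairing and cannot exclude it. With the replicate number as a block, 0 related genes passed in DT vs. DU (Mat1a, limma adjusted p = 0.0593), 1 in DT vs. HU and 2 in DU vs. HU, and 0 probe sets passed in HT vs. HU.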
